A study of Mus musculus with 8 samples.

Results

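The 10 genes described here encode inflammasome sensors, their adaptor and caspases, and the NOD receptors: Nlrp3, Nlrp6, Nlrc4, Aim2 and Mefv, Pycard, Casp1 and Casp4, and Nod1 and Nod2. They were chosen by name. Each gene was read from a probe set, a group of array probes for a single gene, whose annotation gave only that symbol, and where a gene had several the brightest on average over the 8 arrays was kept. All 10 were found, among 22180 genes tested in the same way, and only Nod2 had 2 such probe sets.

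The samples were middle colons of 8 female mice aged 9 weeks, 1 array per mouse, with strain C57BL/6-Trim58tm2313Arte given for both groups. The 4 knockout mice (Trim58-/-) lacked the gene for the ubiquitin ligase TRIM58 in the whole animal, and the 4 wild type mice (Trim58+/+) kept it. Every mouse in both groups drank 4% dextran sulfate sodium (DSS), a sulfated sugar polymer that damages the gut lining, for 7 days and then plain water for 5 days, with tissue taken on day 12. No untreated colon was analysed here, so the values compare genotypes within colitis. The question was what the absence of Trim58 does to transcript levels in the inflamed colon.

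Inflammasomes are protein complexes that form in the cytosol when a sensor detects a microbial product or a disturbance of the cell. The sensor gathers the adaptor ASC, encoded by Pycard, which draws in pro-caspase-1, and the active protease cuts the precursors of interleukin-1 beta and interleukin-18 and opens pores through gasdermin D. NOD1 and NOD2 are related receptors that recognise fragments of bacterial peptidoglycan and signal to NF-kappa B rather than to caspase-1. In the colon these genes are divided between the epithelium, where NLRP6 is prominent, and myeloid cells, where NLRP3 and pyrin, the product of Mefv, are best known.

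Arrays and markers set limits on what follows. Array medians lay between 5.73 and 5.83 (log2), and correlations between arrays between 0.972 and 0.989. Trim58 itself read 5.12 ± 0.09 in wild type and 5.05 ± 0.24 in knockout (log2, SD, n = 4 each; exact two-sided permutation p = 0.6), so this probe set does not check the genotype labels. Where its probes lie relative to the deletion is not stated in the labels. Knockout replicates 1, 2 and 4 stood apart through RNA of pancreatic acinar enzymes. The mean of 8 such genes was 11.12, 12.09 and 11.78 (log2) in them, against 5.81 in knockout replicate 3 and 6.01 to 6.17 in wild type. Epithelial markers were strong in both groups, with a mean over 12 genes of 10.80 to 10.96 in wild type and 10.51 to 10.76 in knockout. Of 12 neutrophil markers 9 were called higher in knockout, where 0.577% of all genes were called in either direction. The list mean was 7.19 to 7.81 in knockout against 5.52 to 6.07 in wild type. Not called were Ltf, Mpo and Ly6g, at 0.36, 0.04 and -0.36 (log2, knockout minus wild type). Of 5 B cell markers 1 was called higher. All 5 passed an unadjusted p under 0.05 with 1.5-fold, where 2.34% of all genes did in either direction. Their list mean was 7.69 to 8.35 in knockout against 6.23 to 7.61 in wild type. The part of these cells and of the pancreatic RNA in the results below was not tested. In whole tissue, more cells of a type and more RNA per cell cannot be told apart.

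The 10 genes did not move together. Mefv rose in the knockout, Nlrp3 was higher in every knockout array without passing the adjusted test, and Pycard was lower in every knockout array without passing it. For the other 7 genes the genotypes overlapped. At a Benjamini-Hochberg adjusted limma p under 0.05, the rule behind "called" here, 1 of the 10 was called, where 0.577% of all tested genes were. At an unadjusted p under 0.05 alone, 4 of the 10 passed, where 14.3% of all genes did. With at least 1.5-fold as well, 2 of the 10 passed, Nlrp3 and Mefv, where 2.34% of all genes did. In 3 of the 10 the 4 knockout values lay wholly outside the wild type range, 2 above and 1 below, where 8.81% of all genes had no overlap in either direction. The median log2 difference over the 10 was -0.05, with 5 above 0 and 5 below, and the median over all genes was -0.01.

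**Figure D1:**
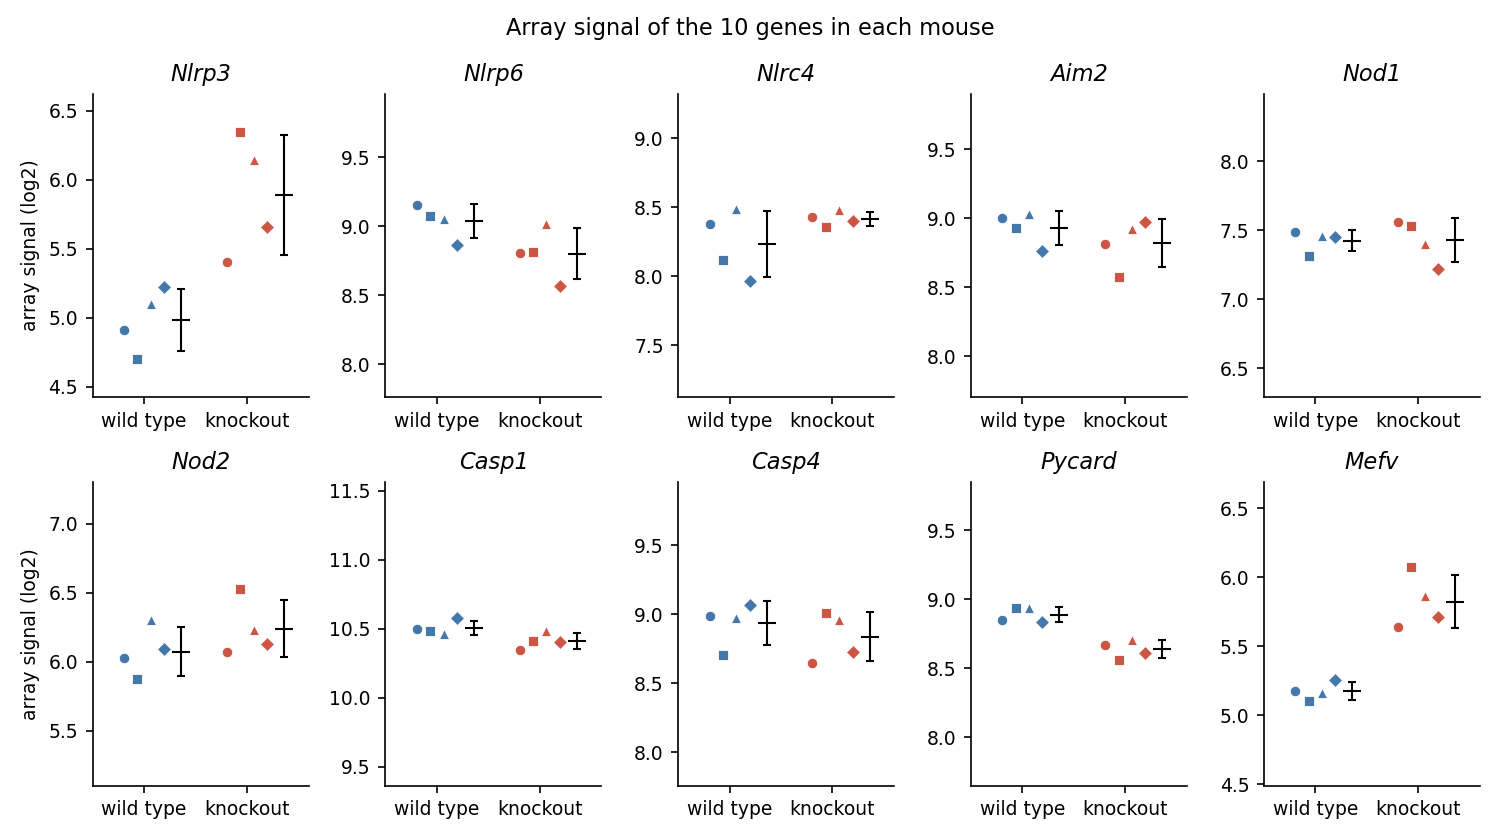
Array signal (log2) of the 10 genes in each of the 4 wild type and 4 knockout mice, with a point per array (circle, square, triangle and diamond for replicates 1 to 4) and the group mean with its SD beside them; the axes differ between genes. The groups are separate for Nlrp3 and Mefv (knockout higher) and Pycard (knockout lower) and overlap in the other 7.

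Nlrp3 encodes the sensor that responds to potassium loss, crystals and other disturbances of the cell, and its transcription is known to rise on Toll-like receptor signalling. Its values were 4.91, 4.70, 5.10 and 5.22 in wild type and 5.40, 6.35, 6.14 and 5.66 in knockout (log2, replicates 1 to 4). All 4 knockouts were above the highest wild type array, replicate 1 by the least and replicate 2 by the most. The means were 4.98 ± 0.23 and 5.89 ± 0.43 (SD, n = 4 each), and the knockout was higher by 0.90 ± 0.20 (log2, SE), or 1.87-fold. The limma p was 0.000983 and its adjusted value 0.0792, so Nlrp3 missed the threshold, as it did in each of the 8 fits without 1 array (adjusted p = 0.0607 to 0.243). The signal was low: the wild type mean exceeded that of 88.4% of 1105 olfactory receptor genes, a class with little known role in colon, and differences near background are understated on such arrays.

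Mefv encodes pyrin, a sensor that is released when bacterial toxins inactivate RhoA and whose variants cause familial Mediterranean fever. Its wild type values were 5.18, 5.11, 5.16 and 5.26 and its knockout values 5.64, 6.08, 5.86 and 5.72 (log2, replicates 1 to 4). The wild type arrays were tightly grouped and every knockout lay above them. The mean rose from 5.18 ± 0.06 to 5.82 ± 0.19 (SD, n = 4 each), that is by 0.65 ± 0.10 (log2, SE) or 1.57-fold (limma adjusted p = 0.0231). The call held in 4 of the 8 fits without 1 array and was lost without wild type replicate 2, 3 or 4 or knockout replicate 2 (limma adjusted p = 0.0988, 0.0586, 0.0585 and 0.0540). Mefv was also a low signal, above 91.7% of the olfactory receptor genes in wild type.

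The knockout array without raised pancreatic enzyme RNA, replicate 3, showed both differences. It was above the wild type mean by 1.16 for Nlrp3 and 0.68 for Mefv (log2), within the range of the other 3 knockouts, 0.42 to 1.36 and 0.47 to 0.90. Against the 4 wild type arrays, that single knockout gave a limma adjusted p of 0.372 for Nlrp3 and 0.472 for Mefv, on the assumption that it varies like the wild type group. Without knockout replicate 3 the log2 differences were 0.82 for Nlrp3 (limma adjusted p = 0.127) and 0.63 for Mefv (limma adjusted p = 0.0366). Over the knockout replicates 1 to 4 the mean of the neutrophil markers was above wild type by 1.45, 2.0, 1.72 and 1.38 and that of 11 monocyte and macrophage markers by 0.05, 0.49, 0.44 and 0.36 (log2). The order of the knockouts, 2, 3, 4 and 1 from the highest down, was shared by Nlrp3, Mefv and the mean of the monocyte and macrophage markers, and the neutrophil markers followed it except that replicate 4 was below replicate 1. Replicates 2 and 3 were close in the monocyte and macrophage mean. Itgam, the 1 called gene of that list, was above wild type by 1.51 in replicate 2 and 1.00 in replicate 3. In wild type the monocyte and macrophage mean, Nlrp3 and Mefv were all highest in replicate 4. That mean was lowest in replicate 3 (7.58), whereas Nlrp3 and Mefv were lowest in replicate 2 (4.70 and 5.11). The wild type range of the monocyte and macrophage mean, 7.58 to 8.73, covered all 4 knockouts, 8.24 to 8.68. What these cells contribute to either gene was not tested.

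**Figure D2:**
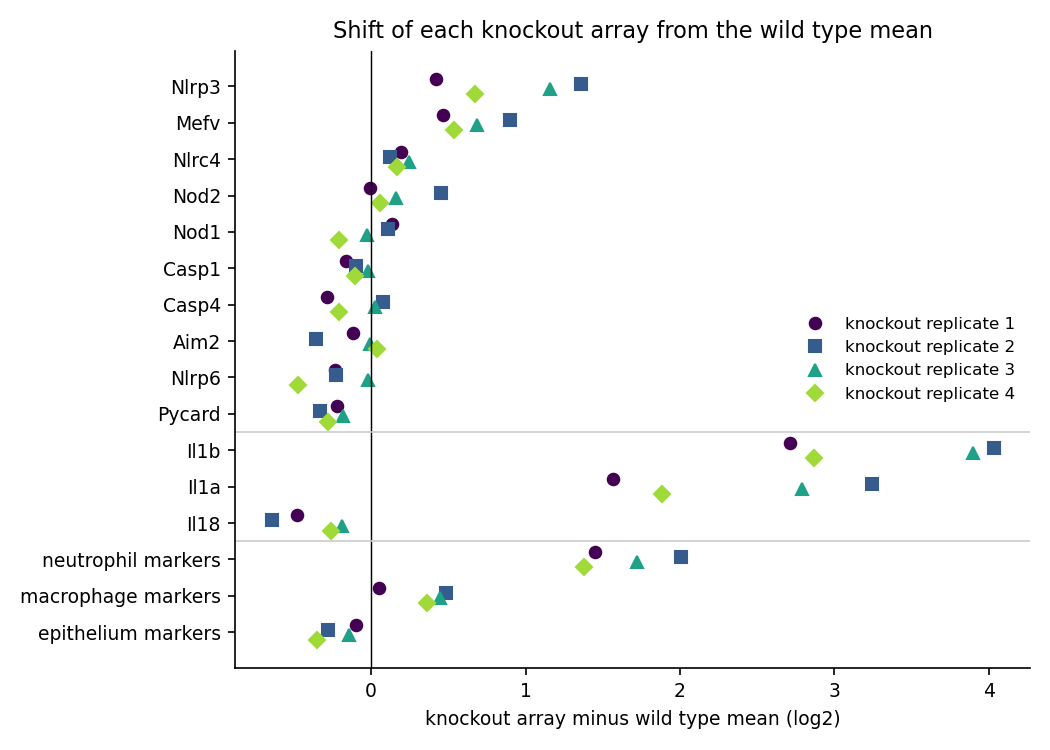
Shift of each knockout array from the wild type mean (log2) for the 10 genes, 3 of the cytokine genes and the means of 3 marker lists, with a symbol per knockout replicate. Nlrp3 is above 0 in all 4 (0.42 to 1.36), as is Mefv (0.47 to 0.90), and Pycard is below 0 in all 4 (-0.33 to -0.18).

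Promoter sequence is shown for the 3 genes without overlap between the genotypes, and for Casp4, which holds the most kappa B matches of the 10 genes. RefSeq windows on GRCm38.p6 run from 250 bases before to 50 after an annotated start, written 5′ to 3′ on the gene's strand, with matches to a searched motif in capitals. Nlrp3 has 2 windows, at chr11:59541319-59541618 and chr11:59542436-59542735, both on the plus strand. The Mefv window is chr16:3718075-3718374 and that of Pycard chr7:127993818-127994117, both on the minus strand, and Casp4 is shown for chr9:5308599-5308898 on the plus strand.
Nlrp3 first window: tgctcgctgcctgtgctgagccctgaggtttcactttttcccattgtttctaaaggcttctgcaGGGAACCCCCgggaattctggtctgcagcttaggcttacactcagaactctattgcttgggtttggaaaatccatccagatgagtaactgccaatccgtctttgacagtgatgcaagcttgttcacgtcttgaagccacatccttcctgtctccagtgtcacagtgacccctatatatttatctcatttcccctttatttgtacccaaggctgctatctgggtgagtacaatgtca
Nlrp3 second window: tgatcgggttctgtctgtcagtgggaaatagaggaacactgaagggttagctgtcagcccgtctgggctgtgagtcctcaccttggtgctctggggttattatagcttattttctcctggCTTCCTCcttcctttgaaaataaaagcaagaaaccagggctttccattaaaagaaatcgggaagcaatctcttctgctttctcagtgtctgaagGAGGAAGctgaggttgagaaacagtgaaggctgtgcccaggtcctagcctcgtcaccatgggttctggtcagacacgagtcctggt
Mefv: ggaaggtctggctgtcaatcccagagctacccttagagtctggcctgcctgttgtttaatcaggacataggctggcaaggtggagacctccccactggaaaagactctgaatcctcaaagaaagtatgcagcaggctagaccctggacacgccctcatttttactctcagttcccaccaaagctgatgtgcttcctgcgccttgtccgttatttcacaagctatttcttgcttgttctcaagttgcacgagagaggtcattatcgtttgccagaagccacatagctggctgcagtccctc
Pycard: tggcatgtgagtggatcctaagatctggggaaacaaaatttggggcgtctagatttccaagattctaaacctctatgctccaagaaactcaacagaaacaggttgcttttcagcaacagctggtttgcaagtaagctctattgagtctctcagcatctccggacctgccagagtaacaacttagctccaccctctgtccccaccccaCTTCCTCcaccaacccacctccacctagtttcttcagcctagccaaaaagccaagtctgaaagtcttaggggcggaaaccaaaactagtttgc
Casp4: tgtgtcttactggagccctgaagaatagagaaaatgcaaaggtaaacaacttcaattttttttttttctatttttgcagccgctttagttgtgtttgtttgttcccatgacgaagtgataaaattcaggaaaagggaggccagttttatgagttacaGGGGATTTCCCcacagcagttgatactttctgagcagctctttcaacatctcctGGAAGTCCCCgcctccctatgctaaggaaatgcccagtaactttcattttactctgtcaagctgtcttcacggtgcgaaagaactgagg

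All 10 genes matched the RefSeq table, with 13 windows, and 4 motifs were searched on both strands. The kappa B motif of the NF-kappa B proteins occurs in 8.46% of all 32851 windows and was found in 3 of the 13. These belong to 2 of the 10 genes, Nlrp3 and Casp4, and the Casp4 windows overlap. In Nlrp3 the match is GGGAACCCCC, with its first base at -186 relative to the first start, and Casp4 has overlapping matches at -93 and -92 and another at -39. The PU.1 motif GAGGAAG, which a myeloid transcription factor binds, is in 13.6% of all windows and in 3 of the 13. These belong to 3 of the 10 genes, Nlrp3 (2 matches in its second window), Pycard and Aim2. The AP-1 motif TGANTCA, in 7.81% of all windows, was found in 1 of the 13, that of Nlrp6. GAAANNGAAA, a form of the interferon-stimulated element found in 3.44%, was in none of the 10 genes. The Mefv window held no match to any of the 4. A match is a description of the letters and not a shown binding site.

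The remaining sensors showed no called difference. Nlrp6, which is prominent in gut epithelium, read 9.16, 9.08, 9.06 and 8.86 in wild type and 8.81, 8.81, 9.02 and 8.57 in knockout (log2, replicates 1 to 4). Knockout replicates 1, 2 and 4 lay below the lowest wild type array. Replicate 3, the knockout array without raised pancreatic RNA, lay within the wild type range. The difference was -0.24 ± 0.11 (log2, SE; limma adjusted p = 0.346). The mean of 12 epithelial markers shifted by -0.10, -0.28, -0.15 and -0.35 in knockout replicates 1 to 4. Of the 12 markers 11 had a difference below 0, and 3 were lower without overlap, where 8.81% of all genes had no overlap in either direction. By limma 0 of the 12 were called, with 2 at an unadjusted p under 0.05, which 14.3% of all genes reach. Both were also at least 1.5-fold lower, where 2.34% of all genes pass the 2 rules together in either direction. They were Slc26a3 at -0.62 and Aqp8 at -1.16 (log2, limma adjusted p = 0.112 and 0.0543). The part of this marker shift in the Nlrp6 values was not tested.

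Nlrc4 encodes the sensor that joins NAIP proteins bound to flagellin or to parts of bacterial secretion systems. Its wild type values spread from 7.96 to 8.48 (8.38, 8.12, 8.48 and 7.96), whereas the knockout values were close together at 8.43, 8.36, 8.48 and 8.40 (log2). The knockouts lay inside the wild type spread, with a log2 difference of 0.18 and a 95% interval of -0.07 to 0.43 (limma adjusted p = 0.525). Aim2, the sensor of double-stranded DNA in the cytosol, read 9.00, 8.93, 9.03 and 8.76 in wild type and 8.81, 8.58, 8.92 and 8.97 in knockout. Only knockout replicate 2 was below the wild type range, and the log2 difference was -0.11 with an interval of -0.34 to 0.12 (limma adjusted p = 0.697).

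Pycard encodes ASC, the adaptor that most of these sensors share. Its values were 8.85, 8.93, 8.94 and 8.83 in wild type and 8.67, 8.56, 8.70 and 8.61 in knockout (log2, replicates 1 to 4). Every knockout lay below the lowest wild type array, by a small margin. The means were 8.89 ± 0.06 and 8.64 ± 0.06 (SD, n = 4 each), and the difference was -0.25 ± 0.07 (log2, SE), or 1.19-fold lower. Pycard did not pass over all genes (limma adjusted p = 0.141), nor in any of the 8 fits without 1 array (limma adjusted p = 0.164 to 0.372). Its difference ran opposite to those of Nlrp3 and Mefv and was smaller.

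Casp1, the protease that the adaptor recruits, stood at 10.50, 10.49, 10.46 and 10.58 in wild type and 10.35, 10.41, 10.49 and 10.40 in knockout (log2). Knockout replicates 1, 2 and 4 lay below the lowest wild type array. Replicate 3, the knockout array without raised pancreatic RNA, lay within the range. The log2 difference was -0.10 with an interval of -0.25 to 0.06 (limma adjusted p = 0.597). Casp4, the mouse caspase-11 gene, whose product binds lipopolysaccharide in the cytosol and cuts gasdermin D, gave 8.99, 8.71, 8.97 and 9.07 in wild type. Its knockout values were 8.65, 9.01, 8.96 and 8.72. Only knockout replicate 1 lay below the wild type range, and the log2 difference was -0.10 with an interval of -0.35 to 0.15 (limma adjusted p = 0.756).

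The NOD receptors showed no called difference either. Nod1, which recognises peptidoglycan mostly from Gram-negative bacteria, had the smallest difference of the 10 genes. Its values were 7.48, 7.31, 7.46 and 7.45 in wild type and 7.56, 7.53, 7.40 and 7.22 in knockout (log2), on both sides of each other. The means were 7.43 ± 0.08 and 7.43 ± 0.16 (SD, n = 4 each), with an interval of -0.20 to 0.21 for the log2 difference (limma adjusted p = 0.991). Nod2, the muramyl dipeptide receptor whose variants are linked to Crohn's disease, read 6.03, 5.88, 6.30 and 6.09 in wild type and 6.07, 6.53, 6.23 and 6.13 in knockout. Only knockout replicate 2 exceeded the wild type range, and the log2 difference was 0.17 with an interval of -0.10 to 0.44 (limma adjusted p = 0.597). The other Nod2 probe set gave a difference of 0.15.

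**Figure D3:**
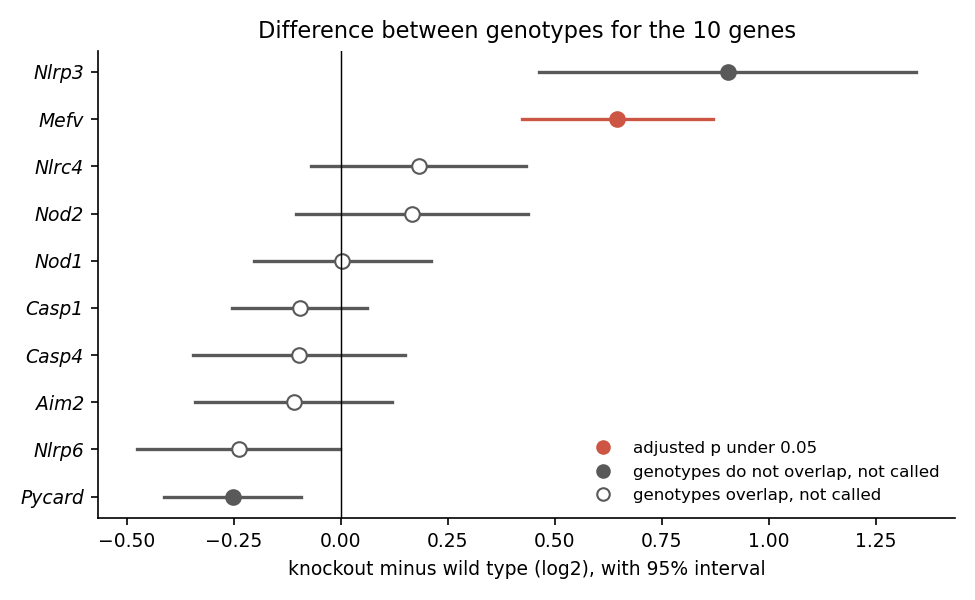
Log2 difference, knockout minus wild type, of the 10 genes with the 95% interval from limma (4 arrays per group); the red gene is called and open points mark genotypes that overlap. The intervals of Nlrp3 (0.46 to 1.34), Mefv (0.42 to 0.87) and Pycard (-0.41 to -0.09) lie away from 0, that of Nlrp6 ends at 0 within rounding, and the other 6 span 0.

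Genes that act with the 10 were counted in 6 lists. Of 67 tested genes, 4 were called higher and 0 lower, where 0.577% of all genes were called. Without overlap 11 were higher and 2 lower, where 8.81% of all genes had no overlap in either direction. The median log2 difference over the 67 was 0.08, against -0.01 over all genes. All but 1 of the called genes belonged to the substrates and outputs of inflammasomes, where 3 of 13 were called higher, 7 were higher and 1 lower without overlap, and the median was 0.32. The 3 were the cytokine genes Il1b and Il1a and the decoy receptor gene Il1r2, which neutrophils also express.

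Il1b encodes the main cytokine that caspase-1 matures. It read 8.06, 7.47, 7.07 and 8.21 in wild type and 10.42, 11.73, 11.60 and 10.57 in knockout (log2, replicates 1 to 4). The lowest knockout array was far above the highest wild type array. The difference was 3.38 ± 0.34 (log2, SE), or 10.4-fold (limma adjusted p = 0.00424), and Il1b was called in all 8 fits without 1 array. Il1a, an alarm cytokine that needs no caspase-1 cleavage to act, read 5.44, 5.04, 5.21 and 5.31 in wild type and 6.82, 8.49, 8.04 and 7.14 in knockout. It was 5.17-fold higher (limma adjusted p = 0.0125). Il1r2, which binds interleukin-1 without signalling, was 3.04-fold higher (limma adjusted p = 0.0121). Without wild type replicate 2 both lost their call (limma adjusted p = 0.0632 for Il1a and 0.0593 for Il1r2). Il1a and Il1b were ordered in the knockouts as Nlrp3 and Mefv were, highest in replicate 2 and lowest in replicate 1.

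Il18, the other caspase-1 substrate and a product of the epithelium, differed the opposite way from Il1b. Its values were 10.69, 10.53, 10.76 and 10.76 in wild type and 10.20, 10.04, 10.49 and 10.42 in knockout (log2). Every knockout lay below the lowest wild type array, and the log2 difference was -0.39 with an interval of -0.64 to -0.15 (limma adjusted p = 0.137). Gsdmd, which encodes the pore protein gasdermin D, differed by 0.09 on the log2 scale (limma adjusted p = 0.798). Il1r1, the signalling receptor of interleukin-1, was higher in every knockout by 0.77 on average and narrowly missed the threshold (limma adjusted p = 0.0516).

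Among 12 other NLR sensors 1 was called, Nlrp12, which encodes a receptor known as a brake on NF-kappa B signalling. It read 5.10, 5.23, 5.36 and 5.34 in wild type and 5.76, 6.03, 5.64 and 5.82 in knockout (log2), with all knockouts above the wild type range. The difference was 0.56 ± 0.10 (log2, SE), or 1.47-fold (limma adjusted p = 0.0452), and the call held in 1 of the 8 fits without 1 array (adjusted p = 0.0290 to 0.160). The next largest difference in that list was that of Nlrc5, an activator of MHC class I genes, at 0.54 (limma adjusted p = 0.389). Naip2, Naip5 and Naip6, the flagellin and secretion system receptors upstream of Nlrc4, differed by 0.00 in size, 0.10 and -0.04, but as near-identical copies they may share probe signal.

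The other 4 lists held no called gene by limma, and their counts at an unadjusted p under 0.05 are to be read against the 14.3% of all genes that reach it. Of 9 other DNA and RNA sensors, 3 had an unadjusted p under 0.05 and the median difference was 0.22 (log2). The interferon-inducible genes Ifi205 and Ifi204 led it at 1.08 and 1.03 (limma adjusted p = 0.173 and 0.0739), with no overlap for Ifi204. The 13 upstream regulators gave 4 at an unadjusted p under 0.05. They were led by the guanylate-binding protein gene Gbp5, known to promote NLRP3 assembly, at 1.33 (adjusted p = 0.0908, no overlap), and Gm12250, also known as Irgb10, at 0.85 (adjusted p = 0.284).

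In the NOD signalling list, 3 of 15 genes had an unadjusted p under 0.05. Slc15a1 and Slc15a3, which encode peptide transporters that carry NOD ligands, led it in opposite directions. The related gene Slc15a4 differed by -0.05 (log2, limma adjusted p = 0.869), with overlap. Slc15a1, the transporter of the epithelial brush border, differed by -1.09 (log2, limma adjusted p = 0.131), and Slc15a3, which works in myeloid endosomes, by 0.87 (limma adjusted p = 0.0516). Every knockout exceeded the wild type range for Slc15a3, whereas 3 of 4 were below it for Slc15a1. Of 5 other caspases 0 had an unadjusted p under 0.05, with Casp8 at -0.12 and Casp2 at -0.05 the largest in size.

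**Figure D4:**
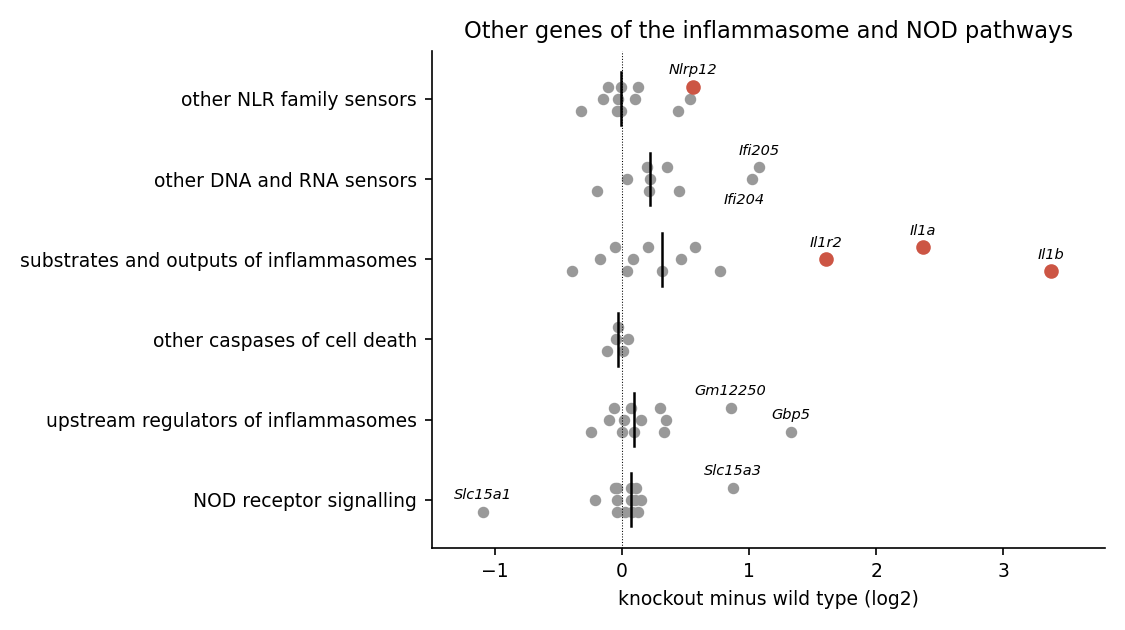
Log2 difference, knockout minus wild type, of each tested gene in the 6 lists, with a point per gene (red where called) and a bar at the list median. Il1b (3.38), Il1a (2.37) and Il1r2 (1.61) stand above the rest, and the list medians run from -0.04 to 0.32.

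Nlrp3 lies near Trim58, the knocked-out gene, on chromosome 11. On GRCm38.p6 Nlrp3 spans chr11:59541569-59566955 and Trim58 chr11:58640465-58652404, so their starts are 901104 bases apart, with 47 annotated genes starting between them. Within 1000000 bases on either side of the Trim58 start 68 other genes were tested, 23 of them olfactory receptor genes. By limma 0 of the 68 were called, with 8 at an unadjusted p under 0.05, which 14.3% of all genes reach. The median log2 difference was -0.02, and Nlrp3 had the highest of the 68 at 0.90. It was the 1 neighbour higher in every knockout, and 5 were lower without overlap, together a share near the 8.81% of all genes.

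The genes nearest to Nlrp3 lay near 0. Those next to it are 4933439C10Rik at -0.09, Zkscan17 at -0.14 and the olfactory receptor gene Olfr222 at -0.05 (log2; limma adjusted p = 0.715 and 0.536 for the first pair). Next to Trim58, Olfr323 stood at 0.05 and Olfr322 at 0.08. The 23 tested genes between Trim58 and Nlrp3 that are not olfactory receptors ranged from -0.35 to 0.21. Of these 23, 2 were lower without overlap, a share near the 8.81% of all genes without overlap in either direction. At an unadjusted p under 0.05 and 1.5-fold 3 of the 68 passed, all higher in knockout, where 2.34% of all genes did in either direction. They were Nlrp3 and, on the other side of Trim58, the interferon-inducible GTPase genes Gm12250 and Igtp (0.85 and 0.73, limma adjusted p = 0.284 and 0.328). The labels do not state which strain supplied the DNA flanking the altered Trim58 allele, and any effect of that DNA on Nlrp3 cannot be told apart from that of genotype.

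**Figure D5:**
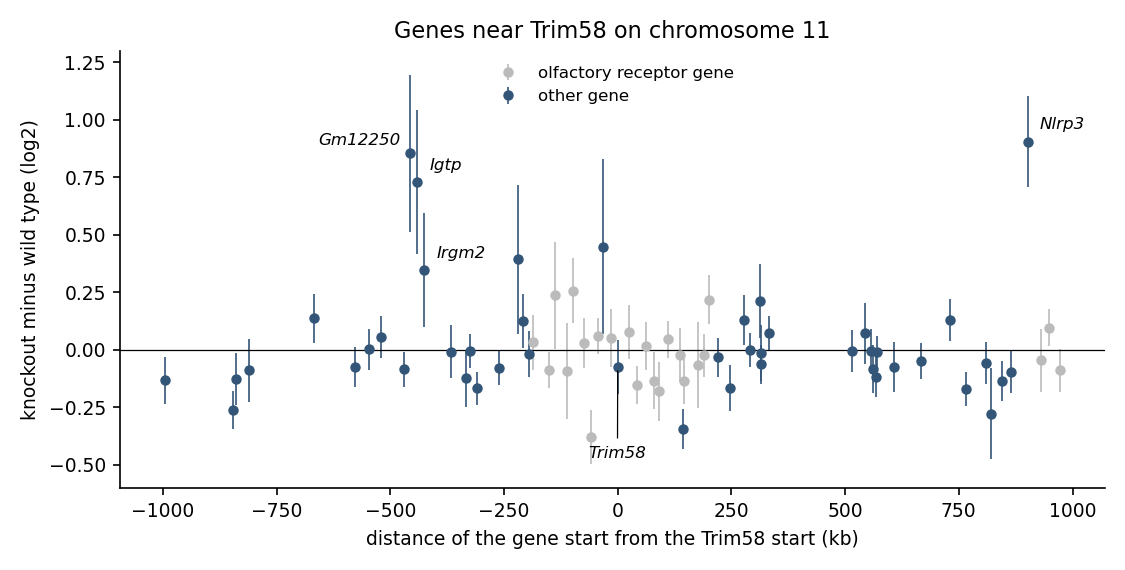
Log2 difference, knockout minus wild type (vertical), against the distance of each gene start from the Trim58 start in kb (horizontal), for Trim58 and the 68 tested genes around it; bars are the standard error from limma. Nlrp3, 901 kb away, is the highest at 0.90 while its neighbours lie near 0.

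Genes with the most similar pattern to each of the 10 were found by Pearson correlation over the 8 arrays, which share genotype and tissue makeup. These are descriptions chosen from the 22180 genes after predicted, RIKEN and olfactory receptor genes and the 10 members were left out. Mefv was closest to Il1a (r = 0.992) and to Mcemp1, a gene of mast cells and myeloid cells (r = 0.990). After removal of each genotype's mean the values, from the same 8 arrays that picked these genes, were 0.946 and 0.920. Nlrp3 was closest to Smox, which encodes spermine oxidase (r = 0.982), and to Gzma, which encodes a granzyme of cytotoxic lymphocytes (r = 0.967), with 0.940 and 0.887 within genotypes. Pycard was closest to Utp11 and Lyplal1 (r = 0.988 and 0.980). Nlrp6 was closest to Krt20, a keratin of mature surface epithelium (r = 0.968, and 0.977 within genotypes), and to D10Wsu102e (r = 0.954).

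For the other 6 genes, whose genotypes overlapped, the closest were Gripap1 and Brip1 for Nlrc4 (r = 0.976 and 0.961) and Gpr152 and Gdf5 for Aim2 (r = 0.967 and 0.963). Prkcsh and Crygn were closest to Nod1 (r = 0.929 and 0.917), and Kbtbd8 and Rbp3 to Nod2 (r = 0.976 and 0.974). For the caspases they were Srrd and Zbtb4 with Casp1 (r = 0.981 and 0.977) and Ccin and Slc30a3 with Casp4 (r = 0.967 and 0.932). None of the genes named for these 6 was in the pathway lists.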

How the data were processed

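Total RNA from 8 middle colons (200 ng per array) was measured on Affymetrix whole-transcript arrays. The deposited values are log2 signals that the authors made by RMA in Affymetrix Expression Console 1.4, per the submitters' processing notes. RMA subtracts background, equalises the distributions of the arrays and merges the probes of a set, which compresses differences of dim genes. Arrays have no sequencing depth, and 4 arrays per group limit the precision.

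Of 41345 probe sets 23521 carried 1 gene symbol and gave 22180 genes. Genotypes were compared over all of them by a moderated linear model without covariates (limma 3.58.1, R 4.3.3) and Benjamini-Hochberg adjusted. Intervals are 95% and unadjusted for the number of genes. Likeness was Pearson's r over the 8 arrays, with predicted, RIKEN and olfactory receptor genes left out. The named genes are the 10 members, Trim58 and its and Nlrp3's neighbours, and from each pathway list the called genes and the 2 with the largest differences. Il18, Gsdmd, Il1r1, Naip2, Naip5, Naip6, Slc15a4 and Igtp fall outside that rule and were named after their values were seen. Some list entries, among them Naip1, Ifi203, Hsp90ab1, Gbp2 and Ripk2, were not analysed here. The members and lists were chosen with earlier results of these data known. Alternatives are given in the closing section, and the scripts were tested on simulated data.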

Additional observations from a re-analysis of the deposited data

How the results depend on the processing

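The settings tried were other variance models, array weights, renormalization, a filter on low genes, other uses of probe sets, a replicate block and leaving out arrays. Of the 10 genes 1 was called, and 0 were with all probe sets tested, with the replicate block or without knockout replicates 1, 2 and 4 together, where 1 knockout array is assumed to vary like wild type. Leaving out 1 array gave 0 to 1 called genes, and 1 to 2 of the 10 past an unadjusted p under 0.05 and 1.5-fold (1 without knockout replicate 2). The limma adjusted p of Mefv was 0.0833 with the replicate block and 0.0981 with all probe sets tested. Nothing in the labels says that a replicate number pairs mice. Correlations between deviations of same-numbered arrays were -0.160 to 0.0517, and those of differently numbered arrays -0.113 to 0.124. So few values cannot show whether mice were matched. With the block 64 genes were called over all, against 128. Of the 67 pathway genes 4 were called, 7 with array weights, 1 with all probe sets tested, and 1 to 5 without 1 array (1 without wild type replicate 2, 5 without knockout replicate 3). Il1b was called in every setting. No chromosome 11 neighbour was called by limma in any setting, with 8 at an unadjusted p under 0.05 in the reported fit (over all genes 14.3% were). Over all genes 23 were called with all probe sets tested, 199 with array weights, 203 without the third of genes with the lowest mean (which leaves Trim58 out) and 14 without knockout replicates 1, 2 and 4 together. Without 1 array they were 25 to 252, with 25, 78 and 65 without wild type replicates 2, 3 and 4 and 55, 43 and 252 without knockout replicates 1, 2 and 3. Small differences changed sign (log2). Trim58 ran from -0.18 to 0.0029 without 1 array. Nod1 ran from -0.040 to 0.073 without 1 array and was -0.0043 at equal array medians and -0.025 without knockout replicates 1, 2 and 4 together, where Casp4 was 0.027. The cause was not tested. Nlrp3, Mefv and Pycard kept their direction in each of the 17 settings. Nlrp3 and Mefv are dim, and probes near background limit the size of their differences.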
